A study of Andropogon gerardi with 36 samples.

Results

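Big bluestem (Andropogon gerardi), a tall C4 grass of the North American prairie, grew in plots 4 and 5 under rainout shelters at the Konza Prairie station in Kansas. Transcript levels of the 2 plots were set against each other on 2-colour arrays made for maize, a related grass. The arrays described here are those whose sample title names plot 4 in one channel and plot 5 in the other. There were 8 such arrays among the 36 of the series, and 7 of them held values. They comprised 2 arrays from June, 2 from the sampling named JulyA, 2 from JulyB and 1 from August. The column of the other August array was empty and gave nothing to analyse.

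Plot 4 was labelled with Cy5 and plot 5 with Cy3 on all 7 arrays, so the dye and the plot cannot be told apart within the pair. At June, JulyA and JulyB, 1 array set subplot 1 of plot 4 against subplot 1 of plot 5. The other array of each time, and the August array, set subplot 2 of plot 4 against subplot 4 of plot 5. The study as a whole dealt with warming and altered soil moisture. The sources used here do not say which of these plots 4 and 5 or their subplots received, nor do they give the tissue or what the letter at the end of each plant code means. For comparison, 8 arrays of plots 6 and 9 covered the same 4 times, with plot 6 always in Cy5.

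The values are log ratios of the 2 channels, given here on the log2 scale. The direction of the deposited ratio is unstated. A positive or negative sign therefore compares arrays and probes with each other, and does not say whether plot 4 or plot 5 was higher. Fewer cells of a type and less RNA per cell cannot be told apart in such bulk samples.

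Some of the transcripts followed below have well-known roles. The hsp70 chaperones bind unfolded proteins and are induced by heat in plants, where they are widely used as a marker of heat stress. Sod4A encodes a cytosolic copper/zinc superoxide dismutase of maize, an enzyme that removes superoxide. MNB1b is a maize DNA-binding protein with a high-mobility-group (HMG) box, an abundant class of chromatin proteins. TCTP, the translationally controlled tumor protein, is a conserved growth-related protein, and RPL27A is a protein of the large ribosomal subunit. Genes whose symbols start with mbd encode methyl-CpG-binding domain proteins, and the tubulin genes encode subunits of microtubules. Most other annotated probes carry only a locus number, and for these no role can be given.

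In June 4277 and 3288 probes had a value, at JulyA 5200 and 4079, at JulyB 6586 and 6019, and in August 6203, with the subplot 1 array first at each of the first 3 times. The other arrays of the series held 2199 to 9530 values. Of the 19200 probes, 3419 had a value on at least 5 of the 7 arrays, 983 on all 7 and 8335 on none. Probes with 1 gene symbol made up 687 of the 3419, and they stood for 151 genes.

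The 7 arrays resembled each other little. Across the probes that 2 arrays shared, Pearson's r lay between -0.26 and 0.27 over the 21 pairs of arrays, with a median of 0.03, and 14 of the 21 were above 0. The 2 arrays of one time had 0.18 in June, 0.003 in JulyA and 0.04 in JulyB. The lowest value joined the JulyA and JulyB arrays of subplot 1, which share a plant code of plot 5, and it was -0.16 without the MNB1b probes. The highest joined the JulyB array of subplot 1 with the August array. Set against the 8 arrays of plots 6 and 9, 5 of the 7 arrays had a higher r with one of these than with any array of their own pair. The highest of these was 0.53, between JulyA of subplots 2 and 4 and the subplot 1 array of plots 6 and 9 at the same time, and the other 4 were 0.30 to 0.39. Each array had more partners in plots 6 and 9 than in its own pair, which by number alone favours a higher r there. These correlations run across probes, which are not independent replicates, and are given as a description.

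**Figure D1:**
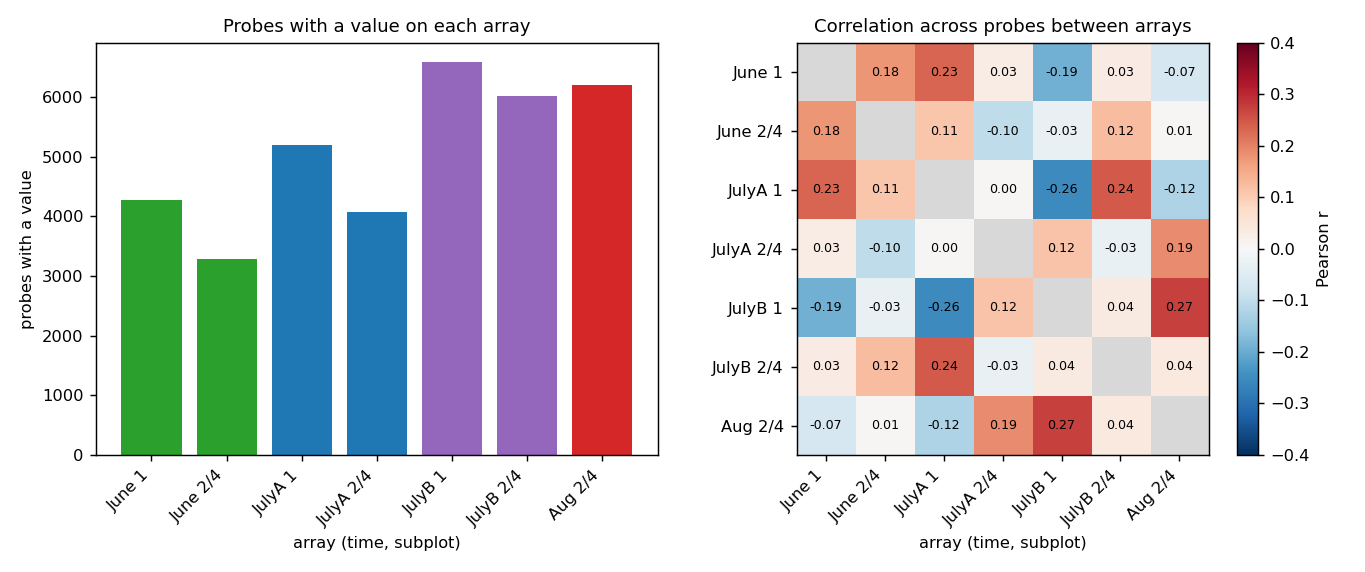
Left, the number of probes with a value on each of the 7 arrays of plots 4 and 5, coloured by sampling time. Right, Pearson's r across shared probes for each pair of these arrays. The JulyB and August arrays hold 6019 to 6586 values, the earlier ones 3288 to 5200, and the highest r is 0.27.

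The first comparison asked which transcripts differed between plots 4 and 5 over the season. The probes nearest to a lasting difference included those of hsp70 and of the gene LOC542438, both on the positive side. No probe passed the test. With limma and Benjamini-Hochberg adjustment, 0 of 3419 probes had an adjusted p under 0.05, and the smallest was 0.182. At an unadjusted p under 0.05 there were 267 probes (7.81%), of which 195 (5.7%) were positive and 72 (2.11%) negative. Among the 983 probes measured on all 7 arrays, 22 (2.24%) were positive on every array and 5 (0.509%) negative on every array.

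All 16 hsp70 probes measured on at least 5 arrays had a positive mean ratio, as had 58.9% of all tested probes. At an unadjusted p under 0.05 there were 14 of the 16, all positive, against 5.7% of all probes, and 0 of 16 after adjustment, where the smallest was 0.442. Their median coefficient was 0.54, and that of all probes was 0.05. Probes annotated to both genes of the family were positive, but whether they measured separate transcripts was not tested. The mean over 8 hsp70-4 probes was 0.52 ± 0.39 and that over 8 hsp70-5 probes 0.46 ± 0.42 (SD, n = 7 arrays each).

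Within hsp70-4, probe 3325 had the highest mean at 0.78 ± 0.23 (SE, n = 5; limma adjusted p = 0.528). Its values were -0.03 and 1.13 in June, 0.76 and 0.71 in JulyB and 1.31 in August, so a single June array stood apart near 0. Probe 4164 had 0.64 ± 0.19 (n = 6) and probe 4575 had 0.52 ± 0.18 (n = 7), each with 1 slightly negative June value. Within hsp70-5, probe 6217 had 0.68 ± 0.18 (SE, n = 6; limma adjusted p = 0.442). Its lowest value was 0.24 in JulyA and its highest 1.07 in June, so every array lay above 0. Probe 5655 had 0.49 ± 0.18 and was positive on all 7 arrays, from 0.06 in June to 1.25 in August. The weakest was hsp70-5 probe 97, with 0.04 ± 0.16 (n = 7).

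**Figure D2:**
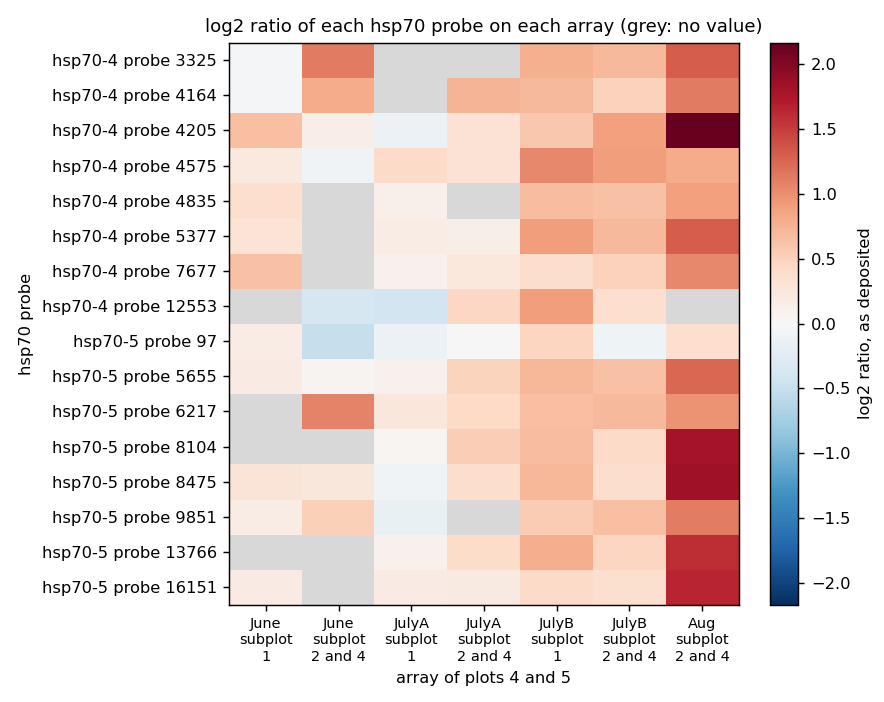
Log2 ratio, as deposited, of the 16 hsp70 probes (rows) on the 7 arrays of plots 4 and 5 (columns, in season order). Grey cells have no value. The August column holds the highest value of most probes, up to 2.17, while the JulyA column of subplot 1 lies between -0.41 and 0.42.

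LOC542438 was the annotated gene with the smallest p for the plot difference. Its probe 11631 had 0.40, 0.66, 1.13, 1.23, 1.33 and 0.73 on the 6 arrays that measured it, in season order, with a mean of 0.91 ± 0.19 (SE; limma adjusted p = 0.192). All 6 values were positive, with the lowest in June. Probes 12140 and 1765 gave 0.83 ± 0.21 (n = 5) and 0.64 ± 0.18 (n = 7), and probe 470 gave 0.60 ± 0.20 (n = 6). The mean over these 4 probes was positive on 7 of 7 arrays, at 0.72 ± 0.35 (SD). Among the 59 genes with at least 3 such probes, LOC542438, hsp70-4 and hsp70-5 were positive on every array, and 0 genes were negative on every array. In plots 6 and 9 the LOC542438 probe 11631 was mixed in sign but mostly positive, from -0.64 to 1.47. The gene mean there was 0.36. Between the pairs, limma gave probe 11631 a difference of 0.43 ± 0.33 (SE, unadjusted p = 0.213). For probes 1765, 470 and 12140 the unadjusted limma p of this difference was 0.0756, 0.150 and 0.298. A difference of this gene from plots 6 and 9 was thus not shown.

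Most other probes with a gene symbol and a small unadjusted p carry locus numbers. LOC542251 (probe 1328) was even over the season, between 0.28 and 0.75 on all 7 arrays, with a mean of 0.50. LOC542301 (probe 9306) had 0.69 and LOC542327 (probe 1599) 0.68. Other LOC542301 probes had lower means, from -0.14 to 0.46. LOC541810 (probe 1538) had 0.62, LOC541895 (probe 12669) 0.85, LOC541913 (probe 7250) 0.80 and LOC542232 (probe 7258) 0.54. LOC541895 had 1 June value of 2.68, with its other values from -0.18 to 0.94, and its mean without that array was 0.49. Without the August array LOC541913 had 0.52, and hsp70-5 probe 13766 had 0.44 in place of 0.67. On the negative side LOC542323 (probe 10952) had -0.67, LOC542641 (probe 8979) -0.76, LOC542737 (probe 7422) -1.02 and MNB1b (probe 7249) -0.83. Of these 4, LOC542323 was positive on 2 of its 7 arrays, and the other 3 on 1 array each.

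The 3 smallest p values of all belonged to probes without a gene symbol. Probe 14843 had -2.20 ± 0.36 and probe 17280 had -1.55 ± 0.30 (SE, n = 6 and 5), and probe 6076 had 0.98 ± 0.19 (n = 5). The first of these was -2.79 and -4.22 in June, -1.49 in JulyA, -1.34 and -0.86 in JulyB and -2.51 in August, always negative. Probes 14843 and 17280 were not particular to plots 4 and 5. As deposited, probe 14843 was negative on 15 of 15 arrays of other pairs with the lower-numbered plot in Cy5, and on 5 of 5 arrays with that plot in Cy3. Probe 17280 was negative on 14 of 14 and on 5 of 5. Their sign thus stayed the same when the dyes were swapped in other pairs. LOC542438 differed from this pattern: the deposited mean of its probe 11631 was 0.91 in plots 4 and 5, against 0.03 on the other arrays of the same orientation and -0.64 on 3 swapped arrays. The value of 0.03 pools several pairs, and in plots 6 and 9 probe 11631 was mostly positive. These means therefore do not make LOC542438 particular to plots 4 and 5. A 2-fold or larger ratio in 1 direction on at least 4 arrays was reached by 2 positive probes (0.0585%) and 4 negative probes (0.117%), none of them annotated with 1 symbol.

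**Figure D3:**
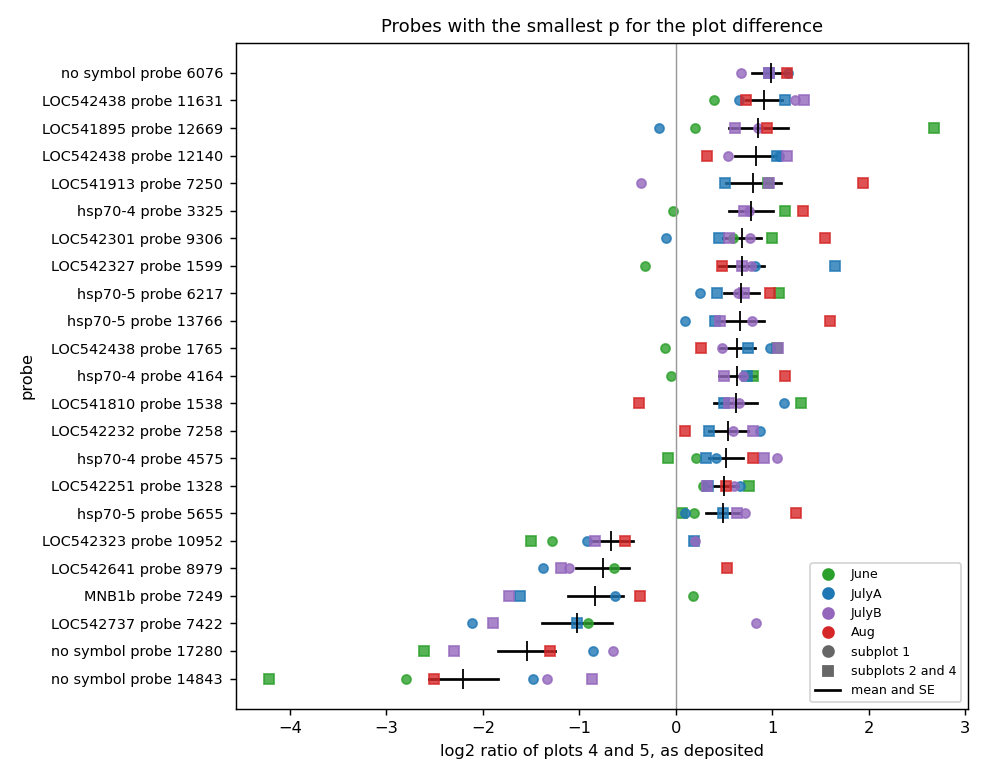
Log2 ratios of the 23 probes named for the plot difference, with the mean and its SE as a black bar. Colour gives the sampling time, circles are subplot 1 arrays and squares arrays of subplots 2 and 4. Most values of the hsp70 and LOC542438 probes lie right of 0, and probe 14843 lies between -4.22 and -0.86.

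No probe of the remaining gene groups passed the test. At an unadjusted p under 0.05, where 7.81% of all probes lay, there was 1 of 200 MNB1b probes, 1 of 11 TCTP probes, 0 of 13 Sod4A probes and 0 of 4 RPL27A probes. The mbd genes had 2 of 8, both positive, and tubulin 0 of 2. TCTP averaged 0.05 ± 0.37 (SD, n = 7) but spread widely, with 0.65 on the JulyA subplot 1 array and -0.50 on the JulyA array of subplots 2 and 4. RPL27A averaged -0.06 ± 0.20, with 4 of 7 arrays negative. The opr genes had no probe on 5 arrays.

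The second comparison asked whether the plot difference moved between the later samplings (JulyB and August, 3 arrays) and the earlier ones (June and JulyA, 4 arrays). A fixed dye effect cancels in it. The ratios of hsp70 and Sod4A were higher late in the season and those of MNB1b lower, by the array means, but 0 of 3387 probes passed limma's adjusted threshold, and the smallest adjusted p was 0.440. At an unadjusted p under 0.05 there were 324 probes (9.57%), with 145 (4.28%) positive and 179 (5.28%) negative. MNB1b probes made up 98 of the 179. Of all tested probes but those of MNB1b, most of them without a symbol, 226 of 3188 (7.09%) were at this level.

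In June the hsp70 mean over probes was 0.25 and 0.30, at JulyA 0.04 and 0.35, at JulyB 0.68 and 0.54, and in August 1.28, with subplot 1 first. The 3 later arrays all lay above the 4 earlier ones, and August was the highest. The later mean was 0.84 and the earlier mean 0.24. All 16 probes had a positive later-minus-earlier coefficient, as had 54.5% of all tested probes, with a median of 0.64 against 0.06 for all probes. By limma, 3 of the 16 had an unadjusted p under 0.05, against 4.28% of all probes on the positive side. These were 3 of 8 hsp70-4 probes, and hsp70-5 had 0 of 8. The August array carried part of this, since without it the later-minus-earlier difference of the group mean was 0.38 in place of 0.60. Across the 116 pairs of hsp70 probes that could be compared, the median correlation over arrays was 0.84.

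The largest hsp70 coefficient was that of hsp70-4 probe 4205, with 0.97 ± 0.41 (SE; limma adjusted p = 0.472). In June it had 0.65 and 0.14, at JulyA -0.13 and 0.32, at JulyB 0.59 and 0.88, and in August 2.17. The August value alone passed 1, and a JulyB value lay below a June value, so the later and earlier arrays overlapped. Among the 5 hsp70 probes measured on all 7 arrays, 3 had every later value above every earlier one, against 4.98% of the 983 probes measured on all 7.

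Sod4A followed the same order at a lower level. In June its mean was -0.42 and -0.04, at JulyA -0.30 and -0.20, at JulyB 0.07 and 0.13, and in August 0.46. All 3 later arrays were positive and all 4 earlier ones negative, with means of 0.22 and -0.24. Of 12 Sod4A probes 12 had a positive coefficient, against 54.5% of all probes, and the median coefficient was 0.44, against 0.06. An unadjusted p under 0.05 was seen for 2 of the 12, both positive, against 4.28% of all probes on that side. Between the subplots at one time the Sod4A mean was lower on the subplot 1 array at June, JulyA and JulyB.

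MNB1b went the other way. In June its mean over 200 probes was 0.46 and -0.05, at JulyA 0.73 and 0.25, at JulyB -1.30 and -0.11, and in August -0.27. The later arrays all lay below the earlier ones, at -0.56 against 0.35, but the JulyB array of subplot 1 was far lower than the rest. Without that array the difference was -0.54 in place of -0.91, and the number of all probes at an unadjusted p under 0.05 was 188 in place of 324. Of 199 tested MNB1b probes, 98 had an unadjusted p under 0.05, all negative, against 5.28% of all probes on that side, and 2 had a positive coefficient. The probes with the smallest p were 7768, at -1.24 ± 0.34, and 10116, at -1.27 ± 0.35 (SE, n = 7; limma adjusted p = 0.440). Probe 10116 lay between -1.11 and -0.25 on the 3 later arrays and between 0.22 and 1.07 on the 4 earlier ones. Of the 95 MNB1b probes on all 7 arrays, 39 had every later value below every earlier one, against 8.65% of the 983 probes, a share that includes them.

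**Figure D4:**
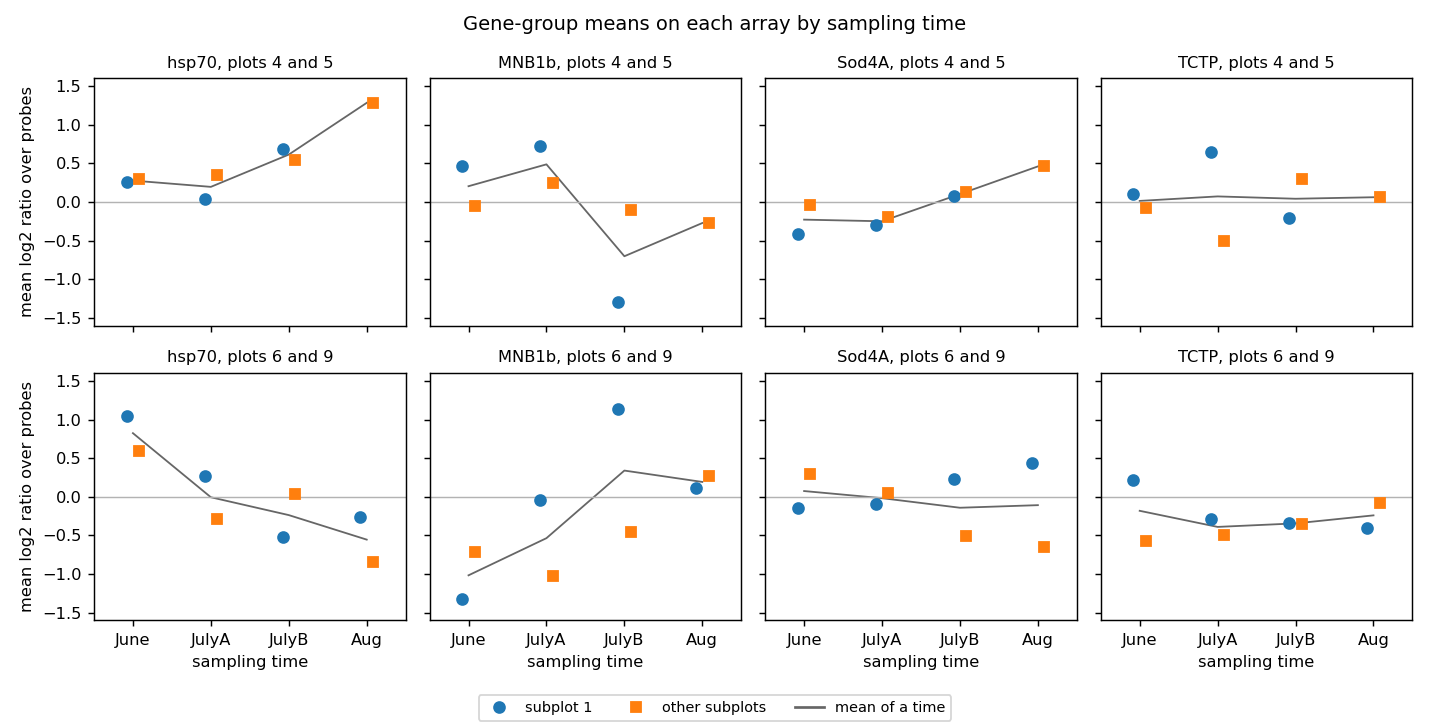
Mean log2 ratio over the probes of hsp70, MNB1b, Sod4A and TCTP on each array, by sampling time, for plots 4 and 5 (top) and plots 6 and 9 (bottom). Circles are subplot 1 arrays, squares the other arrays, and lines join the means of the times. In plots 4 and 5 hsp70 reaches 1.28 in August, while in plots 6 and 9 it is 1.05 and 0.60 in June and -0.26 and -0.85 in August.

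Other genes with later arrays apart from earlier ones carry locus numbers. Of the 59 genes with at least 3 probes, 6 had all later arrays above all earlier ones and 5 had them all below. LOC542367 had a later mean of 0.41 and an earlier mean of -0.22, and LOC542333 had 0.34 and -0.27. LOC542479 had 0.90 and -0.11, which rested on 1 JulyB value of 2.19. On the other side LOC542733 had -0.29 and 0.20, LOC542533 had -0.18 and 0.20, LOC542420 had -0.12 and 0.22, and LOC542301 had 0.04 and 0.32. Among single probes, LOC732811 (probe 10848) had a change of 1.72 ± 0.51 and LOC542115 (probe 10800) one of 1.23 ± 0.37. LOC542395 (probe 988) lay between -0.36 and -0.14 on the later arrays and between 0.47 and 0.83 on the earlier ones. Probes without a symbol reached further, with 2.87 ± 0.68 for probe 8014, -1.99 ± 0.46 for probe 14867 and -2.04 ± 0.46 for probe 1643 (SE; limma adjusted p = 0.440 for each). Probe 18412 of LOC542126 had 1.19 ± 0.43.

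TCTP and RPL27A differed little between the periods. TCTP had 0.05 on the later and 0.04 on the earlier arrays, and RPL27A 0.007 and -0.12. All 8 mbd probes had a positive coefficient, against 54.5% of all probes, and 0 of 8 had an unadjusted p under 0.05, against 9.57%. The arrays overlapped, with means of 0.35 and -0.05 and the lowest later array at 0.14 against the highest earlier one at 0.61. Tubulin had -0.18 and -0.02.

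A test over all 4 times, with August as a single array, called 0 of 2237 probes, and 117 (5.23%) had an unadjusted p under 0.05. The smallest adjusted p in limma's F test was 0.826. The gene-named probes with the smallest p were led by LOC542725 (probe 524), which was negative in June at -0.85 and -1.75, positive in JulyA at 0.99 and 1.28 and near 0 from then on. LOC732811 (probe 133) peaked in JulyB at 1.42 and 1.76. LOC542581 (probe 3247) had -1.0 and -1.32 in June and -0.29 to 0.72 at the later times. Probe 11947, without a symbol, lay at -1.47 on 1 June array and at 1.52 and 2.69 in JulyB. Sod4A probe 5774, hsp70-4 probe 4205 and MNB1b probes 10922 and 1748 were also among the 8. Without the August array, the unadjusted p was 0.354 for that Sod4A probe and 0.372 for that hsp70-4 probe.

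More probes gave a value late in the season. The later arrays held 6269.3 ± 289.3 values and the earlier ones 4211 ± 785.7 (SD, n = 3 and 4), and the groups did not overlap. The exact two-sided permutation p was 0.0571, the smallest that 3 against 4 arrays allow. Of the 19200 probes, 271 had a value on all 3 later and on no earlier array, and 10 were of the reverse kind. The order was the same by the means in plots 6 and 9, where the 4 later arrays held 6652.3 ± 1467.4 values and the 4 earlier ones 4112.3 ± 1136.8 (SD; exact permutation p = 0.0571, where 0.0286 is the smallest possible). Of the 271, 29 carried 1 symbol, among them 1 probe each of mbd115 and tua4 and 2 each of LOC541999 and LOC542610. The width of the ratios did not separate the periods, with a scaled median absolute deviation of 0.60 ± 0.04 on later and 0.57 ± 0.07 on earlier arrays (exact permutation p = 0.514).

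The third comparison set subplot 1 (3 arrays) against subplots 2 and 4 (4 arrays). Few probes stood out. By limma 0 of 3347 probes were called. There were 82 (2.45%) that had an unadjusted p under 0.05, and of these 19 (0.568%) were positive and 63 (1.88%) negative. Among the probes measured on all 7 arrays, 6 (0.61%) had every subplot 1 value above the others and 58 (5.9%) had every one below. Without the JulyB array of subplot 1, 189 of the 3347 probes had an unadjusted limma p under 0.05. LOC541886 (probe 14461) had -2.06 and -1.11 on 2 subplot 1 arrays, against 0.95, -0.15, 1.06 and -0.12 on the others, a difference of -2.02 ± 0.50 (SE; limma adjusted p = 0.9996). LOC542718 (probe 5257) had -0.27 to 0.08 on subplot 1 arrays and 0.68 to 0.99 on the others, a difference of -0.93 ± 0.30 with no overlap. LOC100101525 (probe 11154) had -1.65 ± 0.52, LOC542213 (probe 11718) -1.72 ± 0.56, LOC541675 (probe 10483) -1.89 ± 0.66 and LOC542391 (probe 11267) -0.97 ± 0.36. Without the JulyA array of subplot 1, LOC541675 had -1.23. With sampling time as a block, which compares the subplots within June, JulyA and JulyB, limma called 0 of 2736 probes and 43 had an unadjusted p under 0.05. On the positive side were LOC542340 (probe 3729) with 0.95 ± 0.37 and MNB1b probe 8431 with 1.11 ± 0.41. Probes 4323 and 5800, without a symbol, had -1.36 ± 0.33 and -1.59 ± 0.39.

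All 13 Sod4A probes and all 4 RPL27A probes had a negative subplot coefficient, as had 55.9% of all tested probes, with medians of -0.22 and -0.24, against -0.06 for all probes, and 0 of either had an unadjusted p under 0.05. The hsp70 mean was 0.33 on subplot 1 arrays and 0.62 on the others, with 0 of 16 probes at that level. TCTP was 0.18 and -0.06. August had no subplot 1 array, so the later and earlier samplings are not evenly spread over the 2 kinds of subplot.

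The fourth comparison set plots 4 and 5 against plots 6 and 9, where a fixed dye effect cancels. By their mean, the hsp70 and TCTP ratios lay higher in plots 4 and 5. Of 2925 probes limma called 0. An unadjusted p under 0.05 was seen for 105 (3.59%), of which 86 (2.94%) were positive and 19 (0.65%) negative. All 16 hsp70 probes had a positive coefficient, as had 59.8% of all tested probes, and 7 had an unadjusted p under 0.05. The hsp70 mean was 0.49 ± 0.40 in plots 4 and 5 (SD, n = 7) and 0.01 ± 0.62 in plots 6 and 9 (n = 8). Its probe with the smallest p was hsp70-5 probe 6217, which had 0.89 ± 0.27 (SE; limma adjusted p = 0.999). TCTP probe 10019 had 0.89 ± 0.28, and all 11 TCTP probes had a positive coefficient with a median of 0.28, against 0.06 for all probes. Only that probe had an unadjusted p under 0.05. The TCTP mean was 0.05 ± 0.37 in plots 4 and 5 and -0.29 ± 0.25 in plots 6 and 9. LOC541824 (probe 2541) had 1.15 ± 0.36, LOC100037748 (probe 100) 0.64 ± 0.26 and LOC542625 (probe 14029) -0.59 ± 0.25. Probe 8028, without a symbol, had the smallest p, at 0.93 ± 0.21 (limma adjusted p = 0.745). It lay between -0.07 and 0.67 in plots 4 and 5 and between -0.97 and -0.29 in plots 6 and 9, with no overlap.

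Against the mean of the other 5 pairs, as deposited, 0 of 2882 probes passed limma's adjusted threshold. There were 155 (5.38%) with an unadjusted p under 0.05, 89 (3.09%) of them positive and 66 (2.29%) negative. LOC542323 (probe 10952) had -0.87 ± 0.23, LOC542641 (probe 8979) -0.83 ± 0.25 and LOC542438 (probe 11631) 1.15 ± 0.38 (SE; limma adjusted p = 0.896). The other pairs included 5 arrays with the lower-numbered plot in Cy3, whose ratios entered as deposited. Over the alternatives other than leaving out arrays, the value of probe 11631 lay between 0.75 and 1.18. For hsp70, 13 of 15 probes had a positive coefficient, against 52.9% of all tested probes, and 5 an unadjusted p under 0.05, led by hsp70-4 probe 4205 with 0.61 ± 0.26. That value was 0.36 without the August array, with an unadjusted p of 0.128. TCTP had a positive coefficient in 5 of 10 probes, with a median of 0.02, the same as for all probes at this rounding, and 0 of 10 had an unadjusted p under 0.05. The mbd115 probe 2473 had 0.57 ± 0.25. Probes 16194 and 2053 had 0.68 ± 0.18 and 0.83 ± 0.23.

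The last comparison asked whether the season change of plots 4 and 5 differed from that of plots 6 and 9. The median changes of hsp70 and of MNB1b had opposite signs in the 2 pairs. Since nothing matches plot 4 to plot 6, opposite signs need not mean opposite responses. Over 3083 probes limma called 0, with a smallest adjusted p of 0.139. At an unadjusted p under 0.05 there were 409 (13.3%), of which 122 (3.96%) were positive and 287 (9.31%) negative. MNB1b made up 168 of the 287. Of all tested probes but those of MNB1b, 241 of 2884 (8.36%) had such a p.

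For hsp70, 19 probes could be tested. Their later-minus-earlier change was above 0 in 19 of 19 in plots 4 and 5 and in 0 of 19 in plots 6 and 9, with medians of 0.63 and -0.66, against 0.05 and 0.02 for all probes. The difference of the changes was positive in 19 of 19, as in 53.2% of all tested probes. In 9 of them the unadjusted p was under 0.05, against 3.96% of all probes on that side. The clearest probe, hsp70-5 probe 5655, had 0.18 and 0.06 for June in plots 4 and 5, then 0.10 and 0.49 for JulyA, 0.71 and 0.64 for JulyB and 1.25 for August. In plots 6 and 9 it had 0.98 and 0.59, 0.42 and -0.10, -0.71 and 0.24, and -0.86 and -0.96 at the same times. The later arrays were the higher ones in plots 4 and 5 and mostly the lower ones in plots 6 and 9. The difference of the changes was 1.71 ± 0.48 (SE; limma adjusted p = 0.153). For hsp70-5 probe 16151 it was 2.19 ± 0.67.

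For MNB1b, the change was below 0 in plots 4 and 5 and above 0 in plots 6 and 9 in 193 of 199 probes, against 893 of all 3083 (29.0%), with medians of -0.91 and 1.0. The difference had an unadjusted p under 0.05 in 168 of the 199, all negative, against 9.31% of all probes on that side. Probe 1257 had a difference of -2.94 ± 0.59 and probe 2579 one of -2.57 ± 0.54 (SE; limma adjusted p = 0.139), and probe 5352 had -2.99 ± 0.63. The gene mean on the arrays of plots 4 and 5 was given above. In plots 6 and 9 it was -1.32 and -0.71 in June, -0.04 and -1.03 at JulyA, 1.13 and -0.45 at JulyB and 0.12 and 0.27 in August, with subplot 1 first. On the JulyB arrays outside subplot 1 it was thus negative in both pairs, at -0.11 in plots 4 and 5 and -0.45 in plots 6 and 9, and on the June arrays outside subplot 1 it was also negative in both, at -0.05 and -0.71. Many probes of 1 gene share their target, so these counts are not independent.

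The Sod4A change was positive in 12 of 12 probes in plots 4 and 5 and in 4 of 12 in plots 6 and 9, against 53.6% and 52.6% of all probes, with medians of 0.44 and -0.08, but 0 of 12 had an unadjusted p under 0.05 for the difference. TCTP had medians of 0.05 and 0.06. LOC542301 (probe 8494) had a difference of -1.78 ± 0.47, LOC100125638 (probes 7660 and 10222) of 2.18 ± 0.69 and 2.67 ± 0.89, and LOC542737 (probe 12538) of 3.46 ± 1.09. Probe 8494 of LOC542301 had no June value in plots 6 and 9, so its earlier side there was JulyA alone. Leaving out 1 array at a time gave differences from -2.27 to -1.28 for it. Another LOC542301 probe, 9306, had a difference of 1.22 ± 0.54 (SE), opposite in sign. The gene's other tested probes with values on at least 5 arrays of plots 4 and 5 had -1.50 to -0.33. For LOC542737 the difference was 2.09 without the JulyB array of subplot 1 of plots 4 and 5, with an unadjusted p of 0.0789.

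When only the 415 probes with a value on all 15 arrays of the 2 pairs were tested, limma called 17 (4.1%). These were 11 MNB1b probes, all negative, hsp70-5 probe 5655, with a positive difference of 1.71 ± 0.43 and an adjusted p of 0.0388, and 5 other probes, all negative and none with 1 gene symbol. Leaving out 1 of the 15 arrays at a time gave between 0 and 47 calls. The count was 0 without any 1 of the 3 subplot 1 arrays of plots 4 and 5, and 5 without their August array. It was also 0 without the subplot 1 array of June, JulyB or August or the subplot 4 array of August of plots 6 and 9, and 7 without their JulyA array of subplot 4. It was 47 without the JulyA array of subplot 1, 46 without the JulyB and 36 without the June array of subplot 4 of plots 6 and 9, and 32 without the JulyB array of subplots 2 and 4 of plots 4 and 5.

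**Figure D5:**
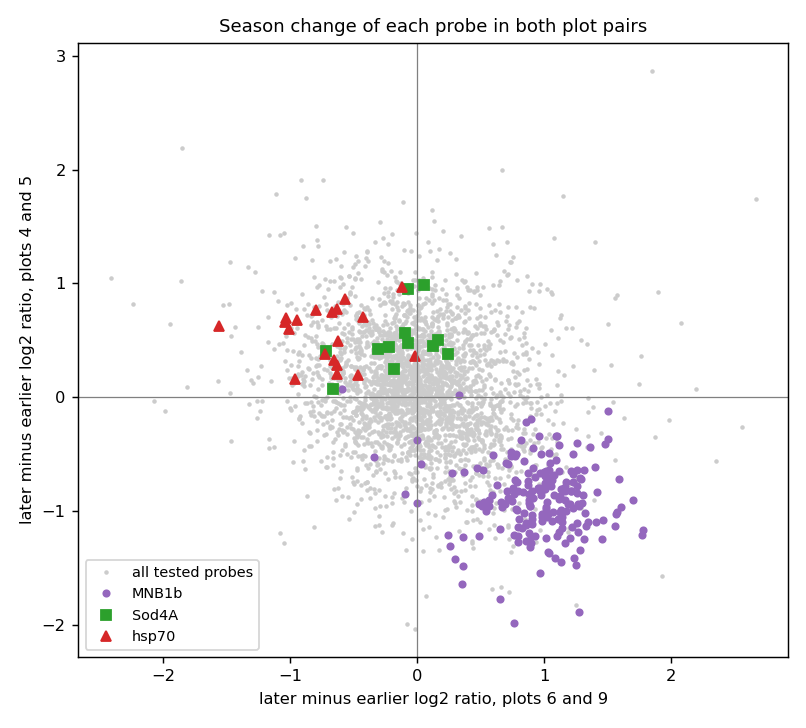
Later-minus-earlier log2 ratio of each of the 3083 tested probes in plots 4 and 5 (vertical) against plots 6 and 9 (horizontal). The hsp70 probes lie at the upper left, with medians of 0.63 and -0.66, and the MNB1b probes at the lower right, with medians of -0.91 and 1.0.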

How the data were processed

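Per the labels' protocols, total RNA from an RNeasy kit was labelled with a Genisphere kit and hybridised in 2 colours. The deposited values are log10 ratios of the 2 channels. The values themselves gave the base: between 93.4% and 98.9% of an array's values equalled the log10 of a fraction with whole numbers above and below and at most 1000 below (tolerance 6e-10), against at most 1.29% for log2. The sources used here do not state direction, scanner, background correction, normalization or filters. The authors' values were converted to log2, with no further scaling. No signal over background was at hand, so only the number of arrays shows how precise a value is.

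Linear models (limma 3.58.1, R 4.3.3) were fitted to probes with values on at least 5 arrays of the pair and at least 2 on each side of a contrast (for the change against plots 6 and 9, at least 2 in each of the 4 groups; for the 4 times, a value at each time and on at least 6 arrays). Missing values were left out probe by probe. A call is a two-sided Benjamini-Hochberg adjusted p under 0.05 over all probes tested. Each fit was tested on simulated data. Alternatives were array centring and scaling, stricter and looser filters, shared plant codes as a random block (statmod 1.5.0), dye terms, robust and ordinary variances, a linear trend, August minus June, and leaving out arrays. Alternatives chosen after seeing the data were one value for each gene symbol, the MNB1b probes left out, sampling time as a block, leaving out arrays of plots 6 and 9, and leaving out arrays among probes on all 15.

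Arrays of one pair count as replicates although they come from different times and subplots. Joined by shared plant codes, the 7 arrays form 4 sets, 1 of them the 3 arrays of subplots 2 and 4 from JulyA, JulyB and August. Nothing says whether a code is a plant or a place, and p-values measure only the spread between these arrays.

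Genes were named from a platform annotation: 1800 probes had 1 symbol, 23 several and 17377 none, for 583 symbols, 539 of them locus numbers. Named are, for the plot difference, the 20 annotated probes of smallest p (at most 3 per symbol), the 8 with the smallest p in each other limma test (at most 2 per symbol), the 3 probes with the smallest p in each, and the genes of the lists hsp70, MNB1b, TCTP, Sod4A, mbd, tubulin, RPL27A and opr. Lists by gene description were void, because no description was available for use here. The gene means and single locus numbers given beside them were picked after their values were seen. The members and lists were chosen with earlier results of these data known.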

Additional observations from a re-analysis of the deposited data

Results flagged for a closer look

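Dixon's test for a single far value was applied to 72 named probes and to 11 gene-group and array measures, over the arrays of plots 4 and 5, and chance alone marks about 1 in 20. It marked 5. On the August array, hsp70-5 probe 16151 had 1.66 and Sod4A probe 5774 had 1.56, each far above its other values, while LOC542625 probe 14029 had -0.89, far below them. On the JulyB array of subplot 1, MNB1b probe 10922 had -1.96, far below its other values, and LOC542737 probe 12538 had 1.22, far above them.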

How the results depend on the processing

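The 7 limma tests gave 0 calls, so there was no called value whose sign could turn. Most alternatives gave 0 calls too. The exceptions were as follows. The plot difference had 1 call with all 34 arrays and no dye term, probe 14843. Leaving out single arrays gave 0 to 7 calls for the 4 times, with 4 and 7 without the subplot 1 array of JulyA and JulyB, and 2 without either array of subplots 2 and 4 of these times. The subplot comparison had 1 call with ordinary least squares. The difference in season change had 17 calls with values on all 15 arrays, 0 to 4 without single arrays (1 without the subplot 4 array of June and 4 without the subplot 1 array of JulyA, both of plots 6 and 9), and 0 to 47 with both (among them 23 and 32 without the June and JulyB arrays of subplots 2 and 4 of plots 4 and 5, and 36 and 46 without the June and JulyB arrays of subplot 4 of plots 6 and 9). Counts at an unadjusted p under 0.05 moved further: the plot difference from 267 to 76 with values on all 7 arrays and to 164 with turned ratios and a dye term; later minus earlier from 324 to 142 with values on all 7 arrays, 188 without the JulyB array of subplot 1, 210 with one value for each gene symbol and 161 for August minus June; the 4 times from 117 to 57 with values on all 7 arrays and 52 to 219 without single arrays; the subplots from 82 to 24 with values on all 7 arrays, 138 with ordinary least squares, 43 with sampling time as a block and 189 without the JulyB array of subplot 1; plots 4 and 5 minus plots 6 and 9 from 105 to 15 with values on all 15 arrays; against the other 5 pairs from 155 to 92 with values on at least 28 arrays; and the difference in season change from 409 to 76 with values on all 15 arrays, 245 without MNB1b, 217 with one value for each gene symbol and 156 for August minus June. Filters that keep fewer probes lower these counts by construction, and for the others the cause was not tested. As a share of the probes tested, the filtered counts were not lower. Later minus earlier had 142 of 983 probes on all 7 arrays, against 324 of 3387, a larger share. The difference in season change had 76 of 415 on all 15 arrays, against 409 of 3083, also larger. The plot difference, with 76 of 983 against 267 of 3419, and the other comparisons kept a similar share. The counts for August minus June can include probes without a June value in a pair, for which the fit estimated another difference. With sampling time as a block, chosen after seeing the data, limma called 0 probes for the subplots, for both comparisons with other pairs and for the difference in season change. Of 74 coefficients of named probes, 7 moved by over 1.5 times without 1 array. Arrays were matched by sampling time or by shared plant codes only in alternatives. The labels give no replicate numbers, so numbers only name arrays.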
